A study of Mus musculus with 4 samples.

Results

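The vacuolar proton pump (V-ATPase) is described here through 10 genes that encode its subunits, taken by name from the gene tables of all 4 libraries, out of 23337 gene names. They are Atp6v0c, Atp6v0b, Atp6v0d1, Atp6v0e and Atp6v0a1 of the membrane sector V0, and Atp6v1a, Atp6v1b2, Atp6v1e1, Atp6v1g1 and Atp6v1h of the cytosolic sector V1. The RNA is described as coming from liver macrophages of Lyz2cre-RosaYFP reporter mice, male and female, aged 6 to 8 weeks. The cells were sorted as YFP+ cells (2 libraries) and YFP- cells (2 libraries). Cre is made from the lysozyme gene Lyz2, and all mice carry it together with the reporter, so YFP marks cells in which Cre was active or whose precursors had it. In each group 1 library has a title that starts with M and 1 a title that starts with FM, without a stated meaning, and the labels give neither the number of animals per library nor whether libraries came from separate animals. P-values therefore rest only on spread between these libraries, which may be technical. In the main fit that spread is a trend over all genes, and a gene's own spread does not enter its p.

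The pump uses ATP, split by V1 in the cytosol, to turn a ring of proteolipid subunits in the membrane, and each turn carries protons across V0 into the organelle. It acidifies endosomes, phagosomes and lysosomes, which macrophages such as the Kupffer cells of the liver use to degrade what they take up. Several subunits exist as isoforms from separate genes, of which some are used in all cells and others in a few cell types.

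Levels are in TPM, which divides reads by gene length and scales each library to the same sum. They can be compared between genes, but a gene's TPM also depends on what else the library holds. Depth in reads is unknown; mean coverage at 1 FPKM was 2.59 to 9.19, and the least covered of the 10 genes was Atp6v1h in YFP+ FM, with a mean coverage of 6.41. The number of genes at 1 TPM or more was 10302 and 7386 in YFP+ M and FM, against 12434 and 12829 in YFP- M and FM. Differences are YFP+ minus YFP- in log2(TPM + 1), and their median over all 12251 tested genes was -1.73 (M libraries -1.01, FM libraries -2.48). Each difference below is to be read against that shift. All 10 Kupffer cell markers examined were present in every library, and their summed level was 34350 and 33180 TPM in YFP+ M and FM, against 6008 and 12520 TPM in YFP- M and FM. C6 and Spic overlapped between the groups, with lower means in YFP+ libraries. The other Kupffer cell markers were higher in YFP+ libraries without overlap, as were 2.5% of all tested genes. The 9 markers of microglia, the macrophages of the brain, summed to 677 and 53.3 TPM in YFP+ libraries, against 10480 and 12010 TPM in YFP- libraries, with none at 0 in any library. The 6 oligodendrocyte markers summed to 106 and 27.1 TPM in YFP+ libraries, against 739 and 846 TPM in YFP- libraries. Mbp made up 27.3 and 1.65 TPM of the YFP+ sums, and 626 and 643 TPM of the YFP- sums. Cnp had 74.38 and 22.78 TPM in YFP+ libraries, against 84.35 and 164.4 TPM in YFP- libraries. Mog was above 0 only in YFP- M, at 0.1545 TPM. The 9 endothelial markers summed to 335 and 158 TPM in YFP+ libraries, against 1132 and 1054 TPM in YFP- libraries. The 5 hepatocyte markers summed to 285 and 604 TPM in YFP+ libraries, against 1315 and 1990 TPM in YFP- libraries. Without Ttr, which the choroid plexus of the brain also makes, the hepatocyte sum was 229 and 552 TPM in YFP+ libraries, against 262 and 1160 TPM in YFP- libraries, so the groups overlapped. Of the endothelial markers, Stab2, Clec4g and Cdh5 overlapped between the groups. The others were lower in YFP+ libraries without overlap, as were 79.7% of all tested genes. The 5 astrocyte markers summed to 29.6 and 5.28 TPM in YFP+ libraries, against 153 and 135 TPM in YFP- libraries. Aldoc made up 91.5 and 81.1 TPM of the YFP- sums. Slc1a2 overlapped between the groups, with 20.2 and 2.65 TPM in YFP+ libraries, against 29.6 and 15.2 TPM in YFP- libraries. The 5 neutrophil markers present summed to 1258 and 6595 TPM in YFP+ M and FM, against 1633 and 2742 TPM in YFP- M and FM. The high sum in YFP+ FM came mostly from S100a8 and S100a9, at 1542 and 4874 TPM. Retnlg was lower in YFP+ libraries without overlap, with 37.6 and 102 TPM against 351 and 146 TPM. Mpo and Elane overlapped between the groups and were highest in YFP- FM. The YFP- libraries, labelled as liver, thus hold transcripts that mark microglia and oligodendrocytes beside those of Kupffer cells, and the part of any of these cell types in the differences below was not tested. In bulk RNA, fewer cells of a type and less RNA per cell cannot be told apart.

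Atp6v0c encodes the proteolipid c, which forms most of the rotating ring and carries the protons. The deposited tables hold a second row, Atp6v0c-ps2, on the same strand of chromosome 17, and its interval (24163865 to 24169395) covers 99.4% of that of Atp6v0c (24163866 to 24169429; GRCm38, mm10). RefSeq and GENCODE place a pseudogene of that name on chromosome 6 instead. The GENCODE M21 pseudogene (chromosome 6, 37806086 to 37806550, plus strand) matches the coding sequence of Atp6v0c at 464 of 465 bases. The stretch around the 1 base that differs, coding bases 81 to 140, is printed to show how little separates them, with that base in capitals (Atp6v0c, chr17:24164822-24164881, minus strand; pseudogene, chr6:37806166-37806225, plus strand; GRCm38):
Atp6v0c: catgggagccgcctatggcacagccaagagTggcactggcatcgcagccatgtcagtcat
Atp6v0c-ps2: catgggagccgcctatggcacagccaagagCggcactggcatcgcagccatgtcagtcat

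The row named Atp6v0c stood at 1442 TPM in YFP+ M and 1848 TPM in YFP+ FM, against 589 TPM in YFP- M and 16.9 TPM in YFP- FM. The row named Atp6v0c-ps2 stood at 0.763 and 0.287 TPM in YFP+ M and FM, against 0.0820 TPM in YFP- M and 672 TPM in YFP- FM. In YFP- FM 97.6% of the summed level of both rows lay on the row named Atp6v0c-ps2, while in the other 3 libraries that share was 0.0139% to 0.0529%. By its deposited interval that row lies over Atp6v0c, and why the level stands there in YFP- FM was not tested.

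On the deposited values Atp6v0c was the 1 subunit gene called higher in YFP+ libraries (log2 difference 3.99, SE 0.82, adjusted p = 0.000167, limma with Benjamini-Hochberg adjustment over all tested genes). Over all tested genes 0.522% were called higher. The SE comes from the variance trend over all genes, although the row lay at 589 and 16.9 TPM in YFP- M and FM. Without the filter on low genes the SE was 2.07 and the call ended (limma adjusted p = 0.321). With both rows summed, which was chosen after seeing the data, the locus had 1443 and 1849 TPM in YFP+ M and FM, against 589 and 689 TPM in YFP- M and FM. The YFP+ libraries remained above both YFP- libraries, by 2.57-fold on average, and the difference of 1.36 (SE 0.73) did not pass (limma adjusted p = 0.112). For the summed rows the M libraries differed by 1.29 and the FM libraries by 1.42, whereas the row alone gave 1.29 and 6.69. Without YFP- FM the row alone gave 1.47 and did not pass (limma adjusted p = 0.0876). With the rows summed the limma adjusted p was 0.317 under quantile normalization, 0.0607 under median-ratio scaling and 0.373 under cyclic loess, with the difference above 0 in each (1.09, 3.66 and 0.94).

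**Figure D1:**
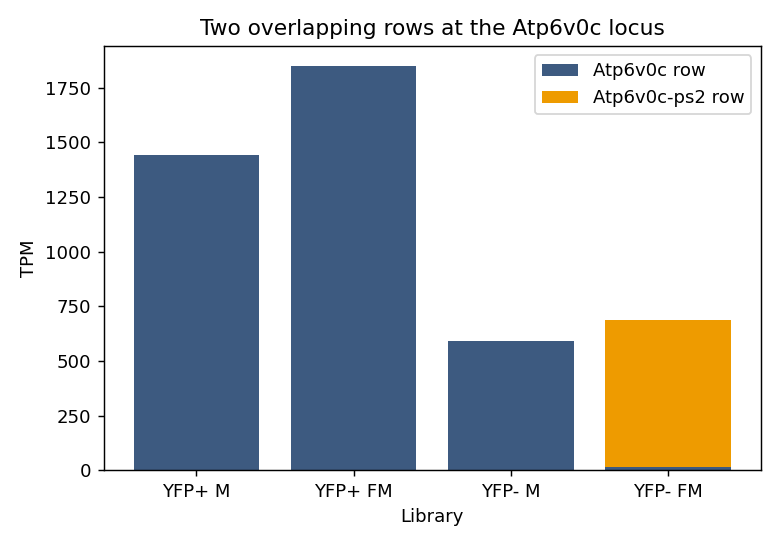
TPM of the row Atp6v0c and of the overlapping row Atp6v0c-ps2, stacked, in each of the 4 libraries. The bars reach 1443 and 1849 TPM in YFP+ libraries and 589 and 689 TPM in YFP- libraries. In YFP- FM nearly the whole bar belongs to the row named Atp6v0c-ps2.

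The other proteolipid and the small membrane subunit differed by less than their standard errors. Atp6v0b, the second proteolipid of the ring, had 324 and 195 TPM in YFP+ M and FM, against 364 and 308 TPM in YFP- M and FM (log2 difference -0.41, SE 0.85, limma adjusted p = 0.675). Atp6v0e, a small membrane subunit, had 584 and 325 TPM in YFP+ libraries, against 435 and 231 TPM in YFP- libraries (0.46, SE 0.82, limma adjusted p = 0.632). In both genes the ranges of the groups overlapped. For Atp6v0e the YFP+ library lay above the YFP- library of the same title start, by 0.42 for M and 0.49 for FM. No pairing by title start is shown, and YFP+ FM lay below YFP- M. For Atp6v0b the sign turned to above 0 under quantile normalization and median-ratio scaling and with FPKM.

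The subunit d, which joins the ring to the central stalk, and the isoform a1, which guides protons to and from the ring, were lowest in YFP+ FM. Atp6v0d1 had 225 and 83.7 TPM in YFP+ M and FM, against 236 and 298 TPM in YFP- M and FM (log2 difference -0.95, SE 0.89, limma adjusted p = 0.356). The groups did not overlap, but in the M libraries the levels lay close together. Atp6v0a1, the a isoform known best from nerve cells, fell in YFP+ libraries, with 15.6 and 8.45 TPM against 47.2 and 128 TPM in YFP- libraries (-2.66, SE 1.06, limma adjusted p = 0.0363). Its mean was 12.01 ± 5.04 TPM in YFP+ and 87.8 ± 57.5 TPM in YFP- libraries (SD, n = 2 each), 7.31-fold lower in YFP+. Over all tested genes 39.5% were called lower and 79.7% had lower YFP+ levels without overlap, so a fall of this kind does not set the gene apart.

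Within V1, the subunits that bind nucleotides were lower in YFP+ libraries without passing the threshold. Atp6v1a, the catalytic A subunit that splits ATP, had 35.6 and 8.71 TPM in YFP+ M and FM, against 67.4 and 141 TPM in YFP- M and FM (log2 difference -2.39, SE 1.03, limma adjusted p = 0.0513). Atp6v1b2, the B isoform of most cells, had 114 and 60.9 TPM in YFP+ libraries, against 124 and 407 TPM in YFP- libraries (-1.42, SE 0.92, limma adjusted p = 0.183). The YFP- FM library was the high one for both, and in Atp6v1b2 the M libraries differed by only -0.12. Without YFP+ M, Atp6v1a was called lower (-3.35, limma adjusted p = 0.00446), as it was without the mean trend in the variance (limma adjusted p = 0.0127). The difference was -1.43 without YFP+ FM, -0.80 under quantile normalization, -0.17 under median-ratio scaling and -0.83 under cyclic loess, none of them called (limma adjusted p = 0.313, 0.449, 0.854 and 0.410). A block for the title start gave a limma adjusted p of 0.193. Where a library is left out, its group holds 1 library, which is assumed to vary like the other group.

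The stalk subunits were the V1 genes with the smallest differences. Atp6v1e1, subunit E of the outer stalks, had 172 and 88.7 TPM in YFP+ M and FM, against 165 and 143 TPM in YFP- M and FM (log2 difference -0.31, SE 0.92, limma adjusted p = 0.775). Atp6v1g1, its partner G in the stalk, had 134 and 96.5 TPM in YFP+ libraries, against 185 and 120 TPM in YFP- libraries (-0.38, SE 0.92, limma adjusted p = 0.722). The groups overlapped in both, and both signs turned to above 0 under quantile normalization, median-ratio scaling and cyclic loess and with FPKM.

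Atp6v1h, the regulatory subunit H that is needed for pumping, was the least abundant of the 10 genes in 3 of the 4 libraries and fell in YFP+ libraries. It had 13.7 and 3.05 TPM in YFP+ M and FM, against 39.9 and 58.2 TPM in YFP- M and FM (log2 difference -2.68, SE 1.11, limma adjusted p = 0.0426). The means were 8.35 ± 7.50 TPM in YFP+ and 49.0 ± 12.9 TPM in YFP- libraries (SD, n = 2 each), 5.87-fold lower in YFP+. The calls of Atp6v0a1 and Atp6v1h ended without YFP+ FM (limma adjusted p = 0.130 and 0.217), without YFP- M (0.175 and 0.293), without YFP- FM (0.555 and 0.524) and under each of the 3 rescalings. With 2 libraries in each group, the smallest p that an exact permutation of the labels can give, two-sided, is 0.333.

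**Figure D2:**
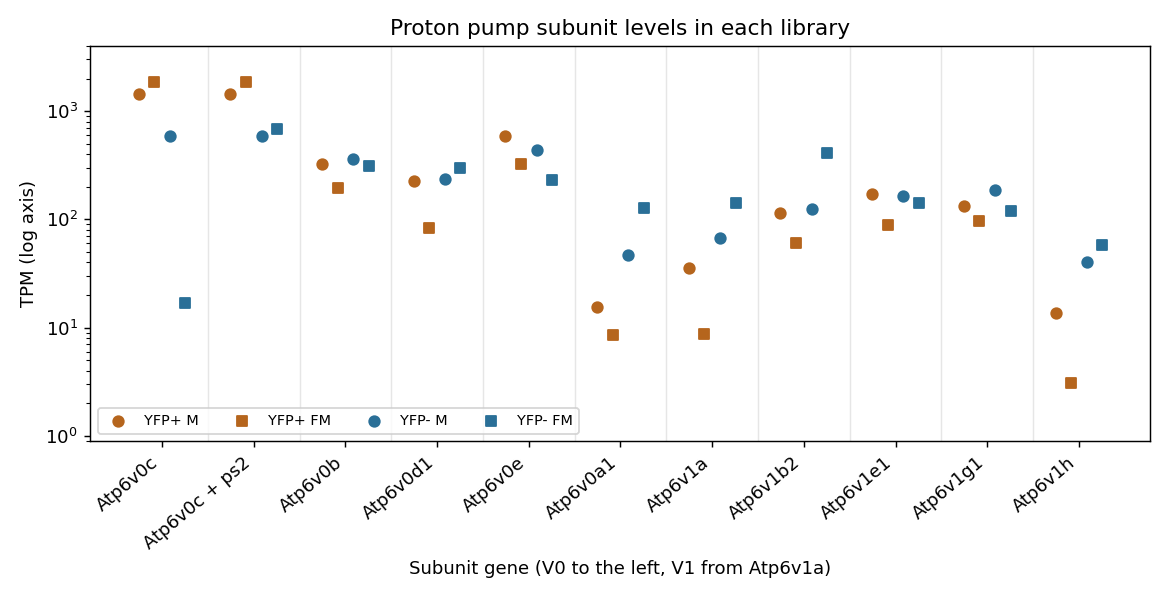
TPM on a log axis of each subunit gene in the 4 libraries, brown for YFP+ and blue for YFP-, circles for M and squares for FM; the second position shows the summed rows of the Atp6v0c locus. Atp6v0c lies at 16.9 TPM in YFP- FM, and the locus at 689 TPM once the overlapping row Atp6v0c-ps2 is added.

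In all, 1 of the 10 genes was called higher and 2 lower on the deposited values, against 0.522% and 39.5% of all tested genes; with the Atp6v0c rows summed the counts were 0 and 2. The groups did not overlap in 6 genes, 1 higher and 5 lower in YFP+ libraries, where 2.5% and 79.7% of all tested genes did the same. Differences above 0 were found in 2 of the 10 genes and in 6.53% of all tested genes. The median difference of the 10 genes was -0.68, with -0.41 for V0 and -1.42 for V1, and 7 of them lay above the median of all tested genes. Atp6v0c with its rows summed still exceeded 99.0% of all tested genes in its difference, Atp6v0e exceeded 96.3%, and Atp6v1h 15.2%.

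Rescaling that brings the median of all genes close to 0 changed the calls. Under quantile normalization (median -0.03) none of the 10 genes was called higher or lower, beside 1.21% and 1.67% of all tested genes. Under median-ratio scaling (median -0.08) Atp6v0c was called higher on the deposited values (6.22, limma adjusted p = 0.00833) and none was called lower, beside 5.62% and 5.9%. Under cyclic loess (median -0.01) none was called in either direction, beside 0.531% and 0.327%. Atp6v0c had limma adjusted p of 0.181 under quantile normalization and 0.167 under cyclic loess, with differences of 4.37 and 4.11.

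**Figure D3:**
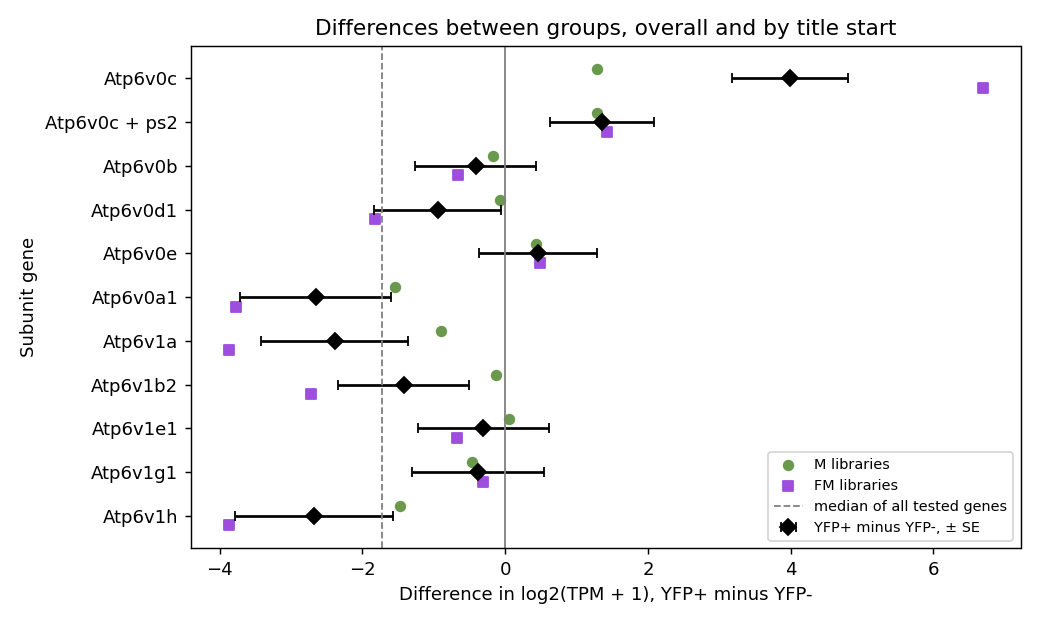
Difference in log2(TPM + 1), YFP+ minus YFP-, for each subunit gene (diamonds, with the standard error of limma), between the M libraries (circles) and between the FM libraries (squares). The dashed line marks the median of all tested genes, -1.73; the squares spread from -3.88 to 6.69 and the circles from -1.54 to 1.29.

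Ratios of TPM between subunit genes within a library are untouched by a single factor per library, though not by quantile normalization or cyclic loess. With the Atp6v0c rows summed, the 5 V0 genes together stood at 5.52 and 9.54 times the 5 V1 genes in YFP+ M and FM, against 2.87 and 1.91 times in YFP- M and FM. Without Atp6v0c the ratio was 2.45 and 2.37 in YFP+ libraries, against 1.86 and 1.11 in YFP- libraries. Over all tested subunit genes, 7 of V0 without Atp6v0c and 9 of V1, the ratio was 1.40 and 1.09 in YFP+ libraries, against 1.03 and 1.33 in YFP- libraries, and the groups overlapped. The c subunit gene took 47.1% and 68.0% of the summed TPM of the 10 genes in YFP+ M and FM, against 26.2% and 27.3% in YFP- M and FM with the rows summed (0.913% in YFP- FM from the row alone). In YFP+ M, YFP+ FM and YFP- M the order of levels began with Atp6v0c, Atp6v0e and Atp6v0b and ended with Atp6v1a, Atp6v0a1 and Atp6v1h. In YFP- FM, with the rows summed, Atp6v1b2 came second, and Atp6v0a1, Atp6v1g1 and Atp6v1h were last.

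Transcript length differed between the subunit genes, and the log2 difference tended to be lower for longer transcripts. Atp6v0a1 and Atp6v1a have principal transcripts of 4008 and 4234 bases in GENCODE M21, against 1000 bases for Atp6v0b, 1135 for Atp6v1g1, 1183 for Atp6v0c and 1312 for Atp6v1e1. Across the 10 genes Spearman's rho of length and log2 difference was -0.56, and it was -0.56 across the 17 tested subunit genes and -0.35 across 10807 tested genes with a length, all from the same 4 libraries. Genes are not independent replicates, so these are descriptions. Among all genes the median difference was -1.27 for transcripts of up to 2199 bases, -1.91 for those of 2200 to 3797 bases and -2.07 for those of 3798 bases or more. Exceptions were Atp6v1h, with 2049 bases and the lowest value of the 10, and Atp6v0e, with 2812 bases and a value above 0. The part of length or RNA quality in the differences was not tested.

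**Figure D4:**
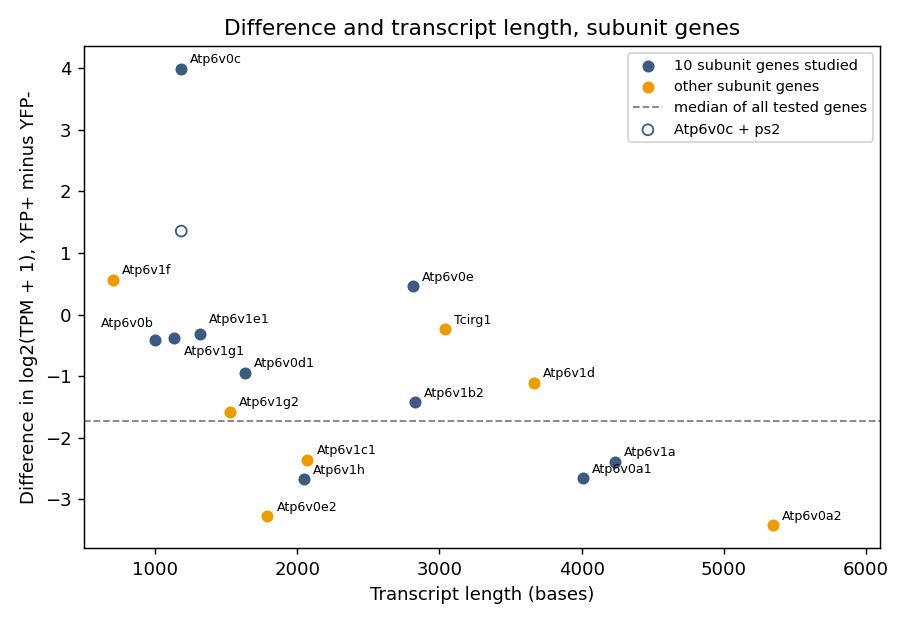
Difference in log2(TPM + 1), YFP+ minus YFP-, against principal transcript length in bases for the 10 subunit genes (blue) and the 7 other tested subunit genes (orange); the open circle is Atp6v0c with both rows summed. The 3 longest, Atp6v0a1, Atp6v1a and Atp6v0a2, lie at -2.66, -2.39 and -3.42.

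The remaining subunit genes show which isoforms accompanied these 10. Of 13 other subunit genes 7 could be tested, of which 0 were called higher and 2 lower, beside 0.522% and 39.5% of all tested genes. Atp6v0a2, an a isoform of endosomes and the Golgi, fell with 16.2 and 2.91 TPM in YFP+ M and FM, against 48.5 and 155 TPM in YFP- M and FM (log2 difference -3.42, limma adjusted p = 0.00891). Atp6v0e2 also fell, with 0.855 TPM in YFP+ M and a listed 0 in YFP+ FM, against 14.1 and 10.5 TPM in YFP- libraries (-3.27, limma adjusted p = 0.00125). Genes were tested if they reached 1 TPM in 2 or more libraries. Atp6v0e2 did so only in YFP- libraries, so a lower YFP+ level was in part fixed by that filter. Atp6v0a2 was called under none of the 3 rescalings (limma adjusted p = 0.180 under quantile normalization, 0.133 under median-ratio scaling and 0.184 under cyclic loess). Atp6v0e2 was called lower under median-ratio scaling (-2.16, limma adjusted p = 0.0106) and not under quantile normalization or cyclic loess (0.0645 and 0.134).

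Tcirg1, the a3 isoform of lysosomes and of osteoclasts, had 194 and 179 TPM in YFP+ M and FM, against 106 and 461 TPM in YFP- M and FM (log2 difference -0.24, limma adjusted p = 0.817). Among the a isoforms Tcirg1 took 85.9% and 94.0% of the summed TPM in YFP+ libraries, against 52.4% and 61.9% in YFP- libraries. Atp6v0a1 took 6.89% and 4.43% in YFP+ libraries, against 23.4% and 17.3% in YFP- libraries. Neither share overlapped between the groups, and no such shares of other genes were computed for comparison. In TPM Tcirg1 overlapped, while Atp6v0a1 and Atp6v0a2 were lower in YFP+ libraries without overlap, as were 79.7% of all tested genes. Their principal transcripts (4008 and 5345 bases) are longer than that of Tcirg1 (3041 bases), and the part of length in the shares was not tested. Atp6v1f, subunit F of the central stalk, had 437 and 448 TPM in YFP+ libraries, against 492 and 181 TPM in YFP- libraries (0.56, limma adjusted p = 0.554).

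Atp6v1c1, the C subunit that holds V1 and V0 together, had 32.2 and 8.68 TPM in YFP+ M and FM, against 81.0 and 101 TPM in YFP- M and FM (log2 difference -2.35, limma adjusted p = 0.0557). Atp6v1d, of the central stalk, differed by -1.10 and Atp6v1g2, the G isoform of nerve cells, by -1.58, neither past the threshold (limma adjusted p = 0.367 and 0.0980). The isoforms d1, e1, B2, C1, E1 and G1 each made up at least 95.6% of their subunit in every library. Atp6v0a4, Atp6v0d2, Atp6v1b1, Atp6v1c2, Atp6v1e2 and Atp6v1g3 stayed below 1 TPM, among them Atp6v0d2, which is known from osteoclasts and some macrophages, at 0.0570 to 0.212 TPM.

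**Figure D5:**
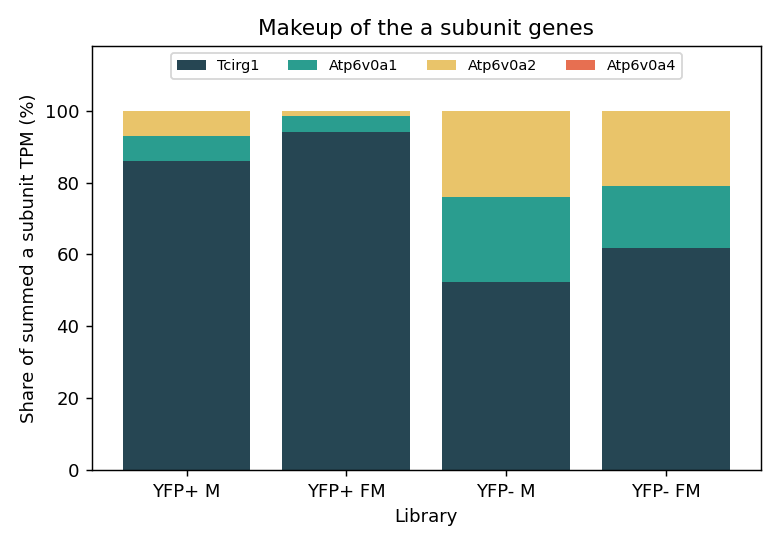
Share of each a isoform gene in the summed TPM of the 4 a isoform genes, in percent, for each library. Tcirg1 holds 85.9% and 94.0% in YFP+ libraries and 52.4% and 61.9% in YFP- libraries, while its TPM overlapped between the groups.

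Genes that assemble or take apart the pump had none called higher. Of 13 tested genes of this list 7 were called lower, beside 39.5% of all tested genes, with a list median of -1.70, beside -1.73 over all tested genes. Dmxl2, a scaffold of the complex that loads V1 onto V0, had 0.447 and 0.0624 TPM in YFP+ M and FM, against 1.96 and 4.35 TPM in YFP- M and FM (log2 difference -1.68, limma adjusted p = 0.00169). Its relative Dmxl1 differed by -1.70 (limma adjusted p = 0.00145). Rogdi, of the same complex, had 48.1 and 20.0 TPM in YFP+ libraries, against 198 and 223 TPM in YFP- libraries (-2.72, limma adjusted p = 0.0201). The accessory subunit Atp6ap2, the prorenin receptor, fell with a difference of -2.57 (limma adjusted p = 0.0309). None of the 13 was called under quantile normalization, median-ratio scaling or cyclic loess. Dmxl1 and Dmxl2 reached 1 TPM only in YFP- libraries and were tested through that group alone. Their lower YFP+ levels were thus in part fixed by the filter, and their differences lay close to the median of all tested genes.

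TFEB and its relatives bind E-boxes (CACGTG) in the promoters of lysosomal genes, pump subunits included, and the pump takes part in the activation of the kinase mTORC1 on the lysosome. Of 16 tested genes of these factors and of mTORC1 activation 0 were called higher and 3 lower, beside 0.522% and 39.5% of all tested genes. The list median was -1.12, beside -1.73 over all tested genes. Tfeb itself had 20.4 and 16.0 TPM in YFP+ M and FM, against 23.6 and 42.3 TPM in YFP- M and FM (log2 difference -0.77, limma adjusted p = 0.539). The genes called lower were Fnip1, a partner of folliculin (-2.52), the amino acid transporter Slc38a9 (-2.53) and Rptor, the scaffold of mTORC1 (-2.85), with limma adjusted p of 0.0114, 0.0347 and 0.0366. Fnip1 had 1.51 and 0.201 TPM in YFP+ M and FM, against 10.2 and 7.86 TPM in YFP- M and FM. Slc38a9 had 3.31 and 0.328 TPM in YFP+ libraries, against 10.7 and 15.5 TPM in YFP- libraries. From the YFP+ libraries alone, neither Fnip1 nor Slc38a9 would have passed the filter at 1 TPM. Mtor, the kinase itself, had a difference of -2.38 and did not pass (limma adjusted p = 0.0577). None of the 3 was called under quantile normalization, median-ratio scaling or cyclic loess, and Lamtor2, of the lysosomal scaffold of mTORC1, was called higher under median-ratio scaling (2.21, limma adjusted p = 0.0226).

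RefSeq promoter windows (GRCm38.p6, 250 bases before to 50 after a start) were found for 7 of the 10 genes, in 9 windows. CACGTG, which reads the same on both strands, stood in the windows of 4 genes, while 8.09% of all 27025 genes with a window (7.15% of 32851 windows) hold it. The longer TCACGTGA, which contains it, stood in 3 of these and in 1.13% of all genes (0.974% of windows). The stretches around the matches are shown because they carry this E-box, in capitals (Atp6v0b, chr4:117887330-117887377, minus; Atp6v0d1, chr8:105566050-105566079, minus; Atp6v0e, chr17:26676387-26676416, plus; Atp6v1a, chr16:44139373-44139402, minus):
Atp6v0b: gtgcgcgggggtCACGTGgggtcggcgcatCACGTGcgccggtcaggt
Atp6v0d1: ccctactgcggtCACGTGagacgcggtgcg
Atp6v0e: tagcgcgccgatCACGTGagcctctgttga
Atp6v1a: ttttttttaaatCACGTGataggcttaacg

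The genes with a match had differences of -0.41, -0.95, 0.46 and -2.39 in the order printed, so they did not share a direction. The 3 windows of Atp6v0c and those of Atp6v0a1 and Atp6v1e1 hold no such letters. A match describes the sequence and is not evidence of binding.

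Among 11 tested endolysosomal channels and chloride transporters 0 were called higher and 3 lower, beside 0.522% and 39.5% of all tested genes. Those lower were the chloride transporters Clcn6 (log2 difference -1.06) and Clcn4-2 (-2.53) and the lysosomal channel Tmem175 (-2.64), with limma adjusted p of 0.0171, 0.0419 and 0.0418. Clcn6 had 0.506 and 0.147 TPM in YFP+ M and FM, against 1.01 and 2.71 TPM in YFP- M and FM. It passed the filter at 1 TPM only through YFP- libraries, which in part fixed its direction. Clcn7, which exchanges chloride for the protons that the pump brings in, had 22.9 and 9.39 TPM in YFP+ M and FM, against 35.1 and 155 TPM in YFP- M and FM (-2.25, limma adjusted p = 0.0699). Tpcn1, an endolysosomal cation channel, differed by -2.54 (limma adjusted p = 0.0513). The list median was -2.37, and under the 3 rescalings none of these genes was called lower. The sign of Clcn6 turned under quantile normalization (0.41) and cyclic loess (0.26), and Tpcn2, another such channel, was called higher under median-ratio scaling (1.69, limma adjusted p = 0.0376).

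Of 31 lysosomal membrane proteins and hydrolases 0 were called higher and 7 lower, beside 0.522% and 39.5% of all tested genes, with a list median of -1.42, beside -1.73. Arsb, a lysosomal sulfatase, had 10.7 and 1.92 TPM in YFP+ M and FM, against 141 and 215 TPM in YFP- M and FM. Arsb and Cd63, a tetraspanin of late endosomes, fell, with log2 differences of -4.90 and -4.16 (limma adjusted p = 0.000261 and 0.000583). Both were also called lower under quantile normalization (limma adjusted p = 0.0311 and 0.0379), and under cyclic loess Arsb was (0.0463) and Cd63 was not (0.053). Ids, which removes sulfate from glycosaminoglycans, fell by 2.46 (limma adjusted p = 0.00754, and 0.305 under quantile normalization). It had 1.23 and 0.1585 TPM in YFP+ M and FM, against 8.15 and 7.50 TPM in YFP- M and FM. From the YFP+ libraries alone Ids would not have passed the filter at 1 TPM. Median-ratio scaling called Arsb and Cd63 lower and Gm2a, Neu1, Psap and Scarb2 higher.

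The 5 genes whose levels over the 4 libraries lay nearest to the Atp6v0c row, by the root mean square difference of centred log2(TPM + 1), were Apoc1 (1.05), Cox5a (1.43), Ifitm3 (1.45), Blvrb (1.49) and Mt1 (1.59). With both rows summed, the nearest were Batf3 (0.084), H2-Eb1 (0.10), C1qa (0.14), Gadd45g (0.16) and Hmga1 (0.17). None of the first 5 was among the second 5. H2-Eb1, an MHC class II gene, had 2401 and 3248 TPM in YFP+ M and FM, against 1165 and 1133 TPM in YFP- M and FM.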

How the data were processed

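RNA-seq gene tables of 2 YFP+ and 2 YFP- libraries were analysed, grouped by the genotype label. Per the file headers the authors deposited mean read coverage, FPKM and TPM for each gene. Per the submitters' processing notes, HISAT and GRCm38 (mm10) were used. The program that wrote the tables, and any use of strand in counting: not given in the sources used here. Rows of 1 name were summed (166 names; each of the 10 subunit genes has 1 row). The 12251 genes that reached 1 TPM in 2 or more libraries were compared on the log2(TPM + 1) scale by limma 3.58.1, run in R 4.3.3 (mean trend, YFP group as the only term, two-sided, Benjamini-Hochberg adjustment over all tested genes, threshold 0.05). The fold changes understate the change of low genes. The prior degrees of freedom were infinite (Inf), so each p rests on the variance trend over all genes. The fit was also run on simulated data, with independent noise drawn from its own variances and no shift over all genes. That run checks the code only and cannot show how the fit handles the shift in these data.

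The subunit genes and the gene and marker lists were chosen with earlier results of these data known. From each list the genes called higher and otherwise those of smallest adjusted p are named, up to 4 a list, and every other subunit gene that reached 1 TPM in a library. Tfeb, Clcn7 and the genes called higher under median-ratio scaling were added after their values were seen. 1 gene that this rule takes is not reported here. For 6 list genes an older name was matched. Lengths, coding sequences and the pseudogene came from GENCODE M21 (GRCm38), promoters from RefSeq (GRCm38.p6). The sequences were aligned with Biopython 1.88. Alternatives are given in the closing section. Deviations from the group means were uncorrelated between libraries of the same title start (r = -0.011 across genes). This correlation cannot show whether libraries of the same start share animals or handling, and the main fit assumed no pairing. Python 3.11.15 served for the remaining steps, with SciPy 1.17.1, NumPy 2.4.6, pandas 2.3.3 and, for plots, matplotlib 3.10.9.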

Additional observations from a re-analysis of the deposited data

Results flagged for a closer look

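Atp6v1e1 was the 1 subunit gene of the 10 whose difference had opposite signs in the title starts: YFP+ minus YFP- was 0.059 between the M libraries and -0.679 between the FM libraries, on the log2(TPM + 1) scale. With 1 library per group and start, this contrast was not tested. Over all tested genes 13.3% had opposite signs.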

How the results depend on the processing

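Calls depended on the setting. Over all tested genes 64 were called higher and 4834 lower in YFP+ libraries. The counts were 51 and 3078 with a pseudocount of 0.1, 1 and 168 without a filter, 57 and 2902 with a filter at 5 TPM, 148 and 205 under quantile normalization, 689 and 723 under median-ratio scaling, 65 and 40 under cyclic loess, 120 and 4073 with FPKM, 57 and 5641 without the mean trend, and 23 and 1726 with the title start as a replicate block. Leaving out 1 library gave 14 to 105 higher and 865 to 8273 lower. Of the 10 subunit genes 1 was called higher; this became 0 without a filter, under quantile normalization and loess, and with the Atp6v0c rows summed, and 0 to 1 with a library left out. The 2 called lower became 0 with a pseudocount of 0.1, without a filter, under quantile normalization, median-ratio scaling and loess and with the block, 1 at a 5 TPM filter and with FPKM, and 0 to 3 with a library left out. With the block, which rests on a shared title start and not on a shown pairing, the Atp6v0c row alone passed (limma adjusted p = 0.00371). The block was not run with the Atp6v0c rows summed.

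Among the 10 subunit genes, signs turned in 5, none of which was called on the deposited values. Under quantile normalization, median-ratio scaling and FPKM, Atp6v0b moved to 0.15, 1.88 and 0.13. Under quantile normalization, median-ratio scaling, loess and FPKM, Atp6v1e1 moved to 0.73, 1.97, 0.48 and 0.23, and Atp6v1g1 to 0.69, 1.90, 0.45 and 0.15. Under median-ratio scaling Atp6v0d1 moved to 1.34 and Atp6v1b2 to 0.86. Atp6v1e1 ranged from -0.78 to 0.16 with a library left out. The causes were not tested. The unknown read depth limits what can be said of genes near 1 TPM.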
